A study of Mus musculus with 2 samples.

Results

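Ccr7, S1pr1 and S1pr4 are genes of receptors that lymphocytes use to enter lymph nodes and to leave tissues, and they were followed in T cells sorted from mouse back skin and lung. They are 3 of the 27514 gene identifiers shared by both count tables. They were read in cells with at least 1 unique molecular identifier (UMI, a tag that counts 1 captured RNA molecule) of the CD3 genes Cd3d, Cd3e and Cd3g. These were 6400 of 6601 cell barcodes in skin and 8349 of 8730 in lung. The skin cells came from adult Foxp3-CreERT2GFP C57Bl/6 mice and the lung cells from adult Foxp3-GFP C57Bl/6 mice that the labels call the Tachilla strain. Both strains carry a green fluorescent reporter of Foxp3, the transcription factor gene that defines regulatory T cells. Tissue was digested with collagenase, the sort took GFP+ cells that also stained for CD45, CD3 and CD4, and libraries were made with 10x 3' v2 chemistry. There is 1 library per tissue and the labels give no number of animals. The count table of skin lists 27998 genes and that of lung 31053. Among the cells read, the lowest total was 1019 UMIs in skin and 500 in lung. Tissue, reporter strain, library and these differences between the count tables cannot be told apart.

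CCR7 is a chemokine receptor that guides T cells into lymph nodes, and into the lymphatic vessels that drain a tissue, along its ligands CCL19 and CCL21. S1PR1 senses sphingosine 1-phosphate (S1P), a lipid that is abundant in blood and lymph and scarce inside tissues, and lets T cells exit along that gradient. The surface protein CD69 binds S1PR1 and takes it off the membrane, and the transcription factor KLF2 drives the S1pr1 gene. S1PR4 is another S1P receptor of blood cells, coupled like the others to G proteins. UMI counts measure RNA and not the receptor on the surface.

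In the GRCm38 assembly, also called mm10, all 3 genes are protein coding and lie on the minus strand. Ccr7 (ENSMUSG00000037944) spans chromosome 11, 99144196 to 99155077, and S1pr1 (ENSMUSG00000045092) chromosome 3, 115710433 to 115715072. S1pr4 (ENSMUSG00000044199) spans chromosome 10, 81497747 to 81500132. Of the 3 members, 1 has a promoter in the RefSeq table used here (GRCm38.p6), placed on RefSeq's own start of the gene, which differs from the start in the span above. It is shown because the members were read beside Klf2 and the FOXO genes, whose factors have known core motifs. The 300 bases, chr10:81500088-81500387 on the minus strand, run from 250 bases before that RefSeq start to 50 after it, and the capitals mark a match to the core CACCC of the KLF family, read on the other strand as GGGTG.
S1pr4 promoter: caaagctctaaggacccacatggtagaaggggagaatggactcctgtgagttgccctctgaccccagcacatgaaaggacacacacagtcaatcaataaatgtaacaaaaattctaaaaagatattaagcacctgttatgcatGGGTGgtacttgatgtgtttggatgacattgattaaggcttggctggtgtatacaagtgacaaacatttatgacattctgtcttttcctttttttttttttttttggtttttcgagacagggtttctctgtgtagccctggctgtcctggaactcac
It holds 1 such match, at position 144, and no match to the FOXO family core GTAAACA or its reverse TGTTTAC. Of 32851 promoters of the same length, 57.5% hold CACCC or GGGTG and 3.65% hold GTAAACA or TGTTTAC. The matches are letters in a window and describe no binding.

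The cells of the rule held 15820166 UMIs in shared genes in skin (median 2083.5 per cell) and 23434633 in lung (median 2384 per cell), of which ribosomal protein genes took 19.0% in skin and 38.2% in lung. The regulatory T cell label was checked on its markers. Foxp3 itself gave a UMI in 5.70% of skin cells and 3.62% of lung cells. Ikzf2, a transcription factor gene of these cells, stood at 1572 CPM in skin and 555 CPM in lung, while the marker Izumo1r stood at 148 CPM in skin and 599 CPM in lung and Gpr83 at 3.92 CPM in skin and 61.0 CPM in lung (CPM, the summed count scaled to a library total of 1000000 UMIs). At least 1 UMI of the 8 listed regulatory T cell markers was present in 99.7% of skin cells and 96.4% of lung cells, and after thinning each cell to 1000 UMIs in 98.0% of skin cells and 85.4% of lung cells. In the clusters of other cell types the thinned share was 64.0% in skin and 26.7% in lung. Outside clusters with markers of fibroblasts, endothelium, epithelium or myeloid cells lay 6279 of the skin cells and 8150 of the lung cells. The libraries share 82 barcode sequences.

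All 3 members stood lower in skin than in lung, S1pr1 and Ccr7 by more than 2-fold and S1pr4 by less. With 1 library per tissue there is no replicate check and no test, and each interval is a 95% interval that covers counting error only. Ccr7 stood at 113 CPM (108 to 118, 1787 UMIs) in skin and 603 CPM (593 to 613, 14128 UMIs) in lung, a skin over lung ratio of 0.187 (0.178 to 0.197). S1pr1 stood at 26.2 CPM (23.7 to 28.8, 414 UMIs) in skin and 269 CPM (262 to 276, 6302 UMIs) in lung, a ratio of 0.0973 (0.0879 to 0.108). S1pr4 stood at 98.5 CPM (93.7 to 103, 1558 UMIs) in skin and 164 CPM (159 to 169, 3837 UMIs) in lung, a ratio of 0.601 (0.567 to 0.638). The 3 ratios do not overlap in their counting intervals.

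Read against the background, 14.9% of the 5687 genes that reached 20 CPM in either tissue stood 2-fold or more above lung in skin on log2(CPM + 5), and 5.05% stood 2-fold or more above skin in lung. Of the 3 members, 2 passed 2-fold towards lung on this scale, at log2 ratios of -3.14 for S1pr1 and -2.37 for Ccr7, and S1pr4 stood at -0.71. The median gene stood at 0.36. Of the genes compared, 0.246% had a lower ratio than S1pr1, 0.826% a lower one than Ccr7 and 7.61% a lower one than S1pr4. Scaling by the median of ratios shifted every gene by -0.41 on the log2 scale and took S1pr4 past 2-fold, at -1.14, and leaving out mitochondrial and ribosomal protein genes took it to -1.13.

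At equal depth the order of the tissues was the same. Each cell was thinned to 1000 UMIs, which left out 0 skin cells and 76 lung cells, and values are means over all possible draws. Ccr7 was then detected in 6.62% of skin cells (6.02 to 7.25) and 36.5% of lung cells (35.4 to 37.5), and unthinned in 12.0% of skin cells and 56.2% of lung cells. S1pr1 was detected in 2.49% of skin cells (2.12 to 2.90) and 23.9% of lung cells (23.0 to 24.8), and unthinned in 5.33% of skin cells and 47.6% of lung cells. S1pr4 was detected in 9.26% of skin cells (8.56 to 10.0) and 14.0% of lung cells (13.2 to 14.7), and unthinned in 19.7% of skin cells and 31.4% of lung cells. Cells of other types were read for comparison. In the 69 fibroblast-like cells of skin the thinned shares were 1.97% (0.114 to 8.65) for Ccr7, 0.411% (up to 6.00) for S1pr1 and 1.61% (0.0553 to 8.07) for S1pr4, and the first 2 of these intervals hold the share of the skin cells of the rule. The 48 cells of skin cluster 9 had endothelial, keratinocyte and pericyte markers. Their thinned shares were 1.67% (0.0191 to 10.4) for Ccr7, 5.01% (0.7998 to 15.5) for S1pr1 and 4.78% (0.715 to 15.1) for S1pr4. Each of these intervals holds the share of the skin cells of the rule, and for S1pr1 that share did not exceed the one of cluster 9. In epithelial-like cells of lung the thinned shares were 3.73% for Ccr7, 3.73% for S1pr1 and 3.78% for S1pr4. Endothelial-like cells of lung gave more, 9.45% for Ccr7, 31.6% (24.4 to 39.5) for S1pr1 and 15.7% (10.4 to 22.4) for S1pr4. For both S1pr1 and S1pr4 the lung cells of the rule did not exceed these endothelial-like cells. None of the 3 was detected in 82.8% of skin cells and 42.6% of lung cells, and all 3 together in 0.0451% of skin cells and 1.42% of lung cells.

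**Figure D1:**
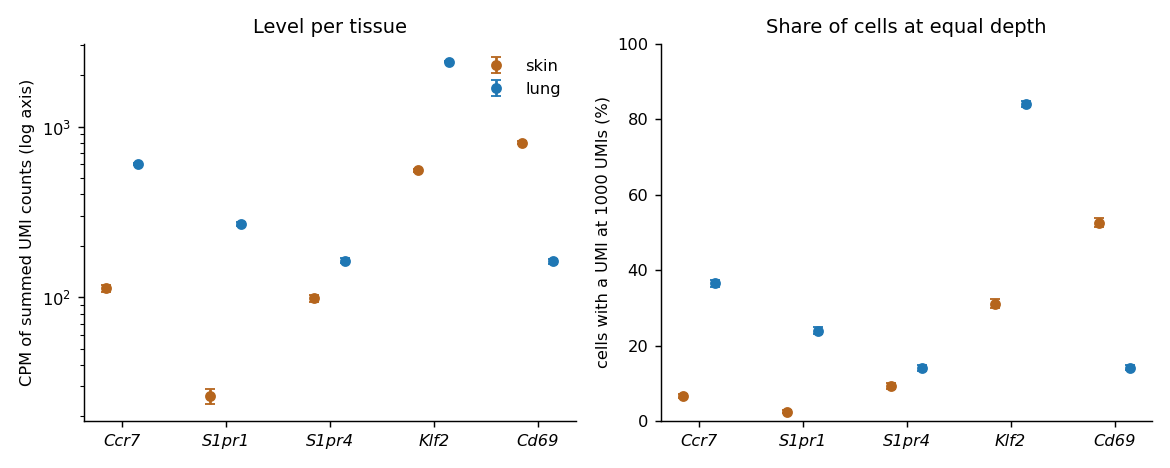
CPM of summed counts (left, log axis) and share of cells with a UMI after thinning to 1000 UMIs (right) for the 3 members and for Klf2 and Cd69, in skin (brown) and lung (blue), with 95% counting intervals. Ccr7, S1pr1, S1pr4 and Klf2 are lower in skin than in lung, and Cd69 is higher, at 806 CPM in skin against 162 CPM in lung.

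Ccr7 UMIs were unevenly spread over the cells that had them. Among Ccr7-positive cells, 23.7% of those in skin and 42.4% of those in lung had 3 or more UMIs, and these cells held 60.4% of the gene's UMIs in skin and 73.9% in lung. For S1pr1, 3.81% of positive skin cells and 13.1% of positive lung cells had 3 or more UMIs, and for S1pr4 the values were 3.41% in skin and 10.4% in lung. A single skin cell held at most 24 Ccr7 UMIs, as did a single lung cell. After thinning, 14.7% of Ccr7-positive skin cells and 18.6% of Ccr7-positive lung cells still had 3 or more.

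In skin, Ccr7 was gathered in 1 of 11 clusters. Cells were clustered without the 3 members and Cd69, so that their levels can be read by cluster, and clusters are called by number and leading genes. Skin cluster 4, with 780 cells (12.2%) and Izumo1r, Tbc1d4 and Bcl2 among its leading genes, stood at 582 CPM (550 to 615) and held 69.8% of all skin Ccr7 UMIs. In the other skin clusters without markers of another cell type Ccr7 stood between 17.4 and 53.9 CPM. Levels of cells of other types are given over all cells of their cluster, with or without a CD3 UMI. The 69 fibroblast-like cells of skin cluster 8 gave 22.1 CPM (10.1 to 42.0, 9 UMIs), and clusters 1, 2, 6 and 7, at 28.6, 36.4, 17.4 and 32.9 CPM, lay within that interval. The Ccr7 level of these 4 clusters was not distinguishable from that of the fibroblast-like cells at this depth, and the part of free RNA in it was not tested. A Cd3g UMI was found in 58.0% of the fibroblast-like cells. Over the 60 of those fibroblast-like cells with a CD3 UMI the level was 23.6 CPM (10.8 to 44.9), an interval that also holds the 42.5 CPM of skin cluster 0. Counting at 1000 UMIs, 29.9% of cells of skin cluster 4 had a Ccr7 UMI, against 1.97% in the fibroblast-like cells, whose median depth was 6182 UMIs against 2227.5.

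Lung Ccr7 was spread over more clusters. It stood highest in lung cluster 4 (leading genes Rgcc and Slc16a3), at 1277 CPM (1232 to 1324), followed by cluster 1 (Rflnb, Gramd3, Vps37b) at 1128 CPM (1098 to 1160) and cluster 5 (Cd83, Areg, Klrg1) at 996 CPM (942 to 1053). Neighbours in this order do not overlap in their counting intervals. The lowest levels among lung clusters without markers of another type were 187 CPM (166 to 210) in cluster 7, led by cell division genes, and 283 CPM (268 to 299) in cluster 3, led by Ccl5, S100a4 and Ccr2. Each of the 8 lung clusters without markers of another type exceeded the 63.3 CPM (41.7 to 92.1) of lung epithelial-like cells. Lung endothelial-like cells stood higher, at 153 CPM (119 to 193), which overlaps the interval of cluster 7, and the other 7 clusters exceeded that interval. Skin cluster 4, at 582 CPM, lay within the range of these lung clusters.

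S1pr1 did not follow the same clusters as Ccr7 in skin. Its highest level was in skin cluster 5 (Gramd3, Gimap4, Itgb1, Ms4a4b), at 75.7 CPM (61.2 to 92.6), above the 50.3 CPM (41.3 to 60.8) of cluster 4. Among clusters without markers of another type it was lowest in cluster 1, led by Calca, Il13 and Il10, at 7.16 CPM (4.24 to 11.3). The fibroblast-like cells gave 4.92 CPM (0.596 to 17.8, 2 UMIs), and clusters 1, 7 and 3, at 7.16, 11.4 and 13.7 CPM, lay within that interval. Skin cluster 9, with endothelial, keratinocyte and pericyte markers, stood at 69.6 CPM (38.0 to 117), an interval that holds the level of cluster 5. Skin cluster 5 held 22.7% of the S1pr1 UMIs in 6.67% of the cells, and cluster 4 held 26.1% in 12.2%. In lung S1pr1 ranged less, between 189 CPM in cluster 7 and 411 CPM (386 to 438) in cluster 4. The lowest of these exceeded the highest of the skin T cell clusters. Lung endothelial-like cells, a type known to use S1PR1, stood at 407 CPM (351 to 469), and lung epithelial-like cells at 65.6 CPM (43.6 to 94.9).

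S1pr4 ran in another order again. In skin it was highest in cluster 5, at 189 CPM (166 to 215), and, among clusters without markers of another type, lowest in the Ccr7-rich cluster 4, at 65.7 CPM (55.3 to 77.5), which overlaps the next lowest, cluster 3, at 77.9 CPM (67.7 to 89.1). In lung it was highest in the dividing cluster 7, at 288 CPM (262 to 316), and in cluster 3, at 239 CPM (224 to 253). These 2 were also the T cell clusters with the lowest Ccr7, but the order was not reversed throughout. Lung cluster 0, whose Ccr7 at 304 CPM (288 to 320) overlapped that of cluster 3, had the lowest S1pr4 value, 115 CPM (105 to 125). Lung cluster 4, highest in Ccr7, had S1pr4 at 174 CPM (157 to 191). The fibroblast-like cells of skin gave 17.2 CPM (6.92 to 35.5), below all 8 skin T cell clusters. Lung endothelial-like cells gave 164 CPM (129 to 205), and of the lung T cell clusters only 7 and 3 lay above that interval. Median depth was 7365 UMIs per cell in lung cluster 7 and 3244 in lung cluster 3, against 2028 to 3114 in the other lung clusters, and the part of depth in these levels was not tested.

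**Figure D2:**
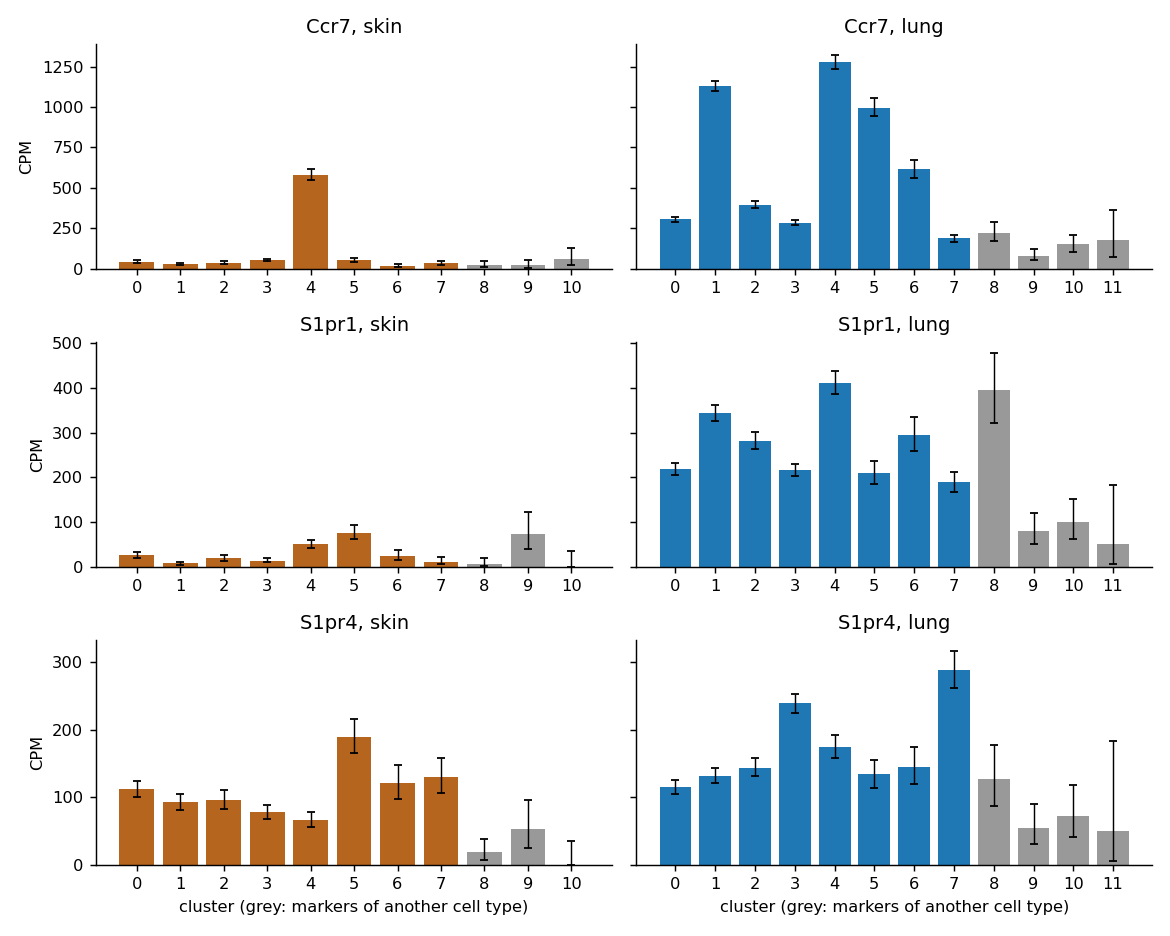
CPM of Ccr7, S1pr1 and S1pr4 (rows) by cluster in skin (left) and lung (right), with 95% counting intervals. Grey bars are clusters with markers of another cell type. Ccr7 in skin stands out in cluster 4 alone, S1pr1 and S1pr4 in skin are highest in cluster 5, and S1pr4 in lung is highest in clusters 7 and 3.

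The ligand side of the Ccr7 axis lay outside the T cells. Ccl21a UMIs were found in the cells of the rule at 69.5 CPM in skin and 45.7 CPM in lung. Of these, 84.6% in skin came from the 42 cells of cluster 9, which carried endothelial, keratinocyte and pericyte markers. In lung, 93.7% came from 75 endothelial-like cells. A single cell held 388 of the 1099 Ccl21a UMIs in skin, and a single cell held 595 of the 1070 in lung. Ccl19, the other ligand gene, had 180 UMIs in skin, 95.6% of them in fibroblast-like cells, and 9 UMIs in lung. A single skin cell held 80 of those 180. These levels and shares therefore rest in large part on single cells. Ackr4, which scavenges both ligands, had 13 UMIs in skin and 11 in lung. Of the 7 listed ligand, scavenger and entry receptor genes with enough counts, 1 stood 2-fold or more towards skin and 1 towards lung, against 14.9% towards skin and 5.05% towards lung over all genes. Itgal, the alpha chain of LFA-1, stood at 111 CPM in skin against 44.9 CPM in lung. Itga4, the alpha chain of VLA-4, stood at 15.2 CPM in skin against 81.7 CPM in lung, a ratio of 0.186 (0.162 to 0.213).

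Among the S1P receptors only S1pr1 and S1pr4 reached 20 CPM in either tissue. S1pr2, a receptor that couples to another G protein and restrains migration, had 143 UMIs (9.04 CPM, 7.62 to 10.6) in skin. In lung S1pr2 had 53 UMIs (2.26 CPM, 1.69 to 2.96), a skin over lung ratio of 3.997 (2.90 to 5.59). Of these S1pr2 UMIs, 20.3% in skin and 17.0% in lung lay in clusters of other cell types. S1pr3 had 12 UMIs in skin, 83.3% of them in cluster 9, and 8 UMIs in lung, 87.5% of them in the fibroblast-like cluster 10. S1pr5 had none in either library, which allows a level of up to 0.190 CPM in skin and 0.128 CPM in lung (3 counts). Of 9 listed genes of S1P production, transport and breakdown, 3 could be compared. Plpp3, a lipid phosphatase gene, was 4.17-fold (3.56 to 4.90) higher in skin, with 83.2% of its skin UMIs in fibroblast-like cells. Sgpp1, the gene of an S1P phosphatase, had a skin over lung ratio of 0.430 (0.384 to 0.481), and Sgpl1, the S1P lyase gene, stood at 24.7 CPM in skin against 10.1 CPM in lung.

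Of 17 signalling genes behind these receptors, 2 stood 2-fold or more towards skin and 1 towards lung, near the shares of all genes (14.9% towards skin and 5.05% towards lung). The list's median log2 ratio was 0.40, and that of all genes 0.36. Rgs2, a brake on G protein signalling, stood at 1015 CPM in skin against 436 CPM in lung, and Tln1, which links integrins to actin, at 239 CPM in skin against 98.7 CPM in lung. Rgs10, of the same family as Rgs2, stood at 206 CPM in skin against 546 CPM in lung. Gnai2, the G protein subunit used by CCR7 and S1PR1, stood at 495 CPM in skin and 443 CPM in lung. Arrb2 and Grk2, which desensitize such receptors, had ratios of 1.23 (1.14 to 1.33) and 1.25 (1.16 to 1.34).

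Transcription factor genes of recirculating lymphocytes were lower in skin as a list. Of 7 compared, 6 stood 2-fold or more towards lung and 0 towards skin, against 5.05% and 14.9% of all genes. The list's median log2 ratio was -2.23, and that of all genes 0.36. Klf2 stood at 554 CPM in skin against 2402 CPM in lung, and Satb1, a chromatin organizer, at 27.1 CPM in skin against 406 CPM in lung. Lef1 and Tcf7, partners of WNT signalling in naive and memory T cells, had ratios of 0.157 (0.145 to 0.170) and 0.157 (0.143 to 0.173). Foxo3 was the exception, at 23.1 CPM in skin and 22.1 CPM in lung. On the other side, 7 of 8 tissue retention genes stood 2-fold or more towards skin and 0 towards lung, with a median of 1.91. Over all genes, 14.9% stood that far towards skin and 5.05% towards lung. Cxcr6, a receptor of resident T cells, stood at 668 CPM in skin against 3.46 CPM in lung, and Itgae, the CD103 gene, at 320 CPM in skin against 10.7 CPM in lung. Early response genes, which also rise when tissue is dissociated, moved with tissue too. Of 19 compared, 12 stood 2-fold or more towards skin and 2 towards lung, against 14.9% and 5.05% of all genes. Among the cells low in early response genes within each tissue, the log2 ratios were -1.77 for Ccr7 and -3.07 for S1pr1. Thinned cells were also split at the median early response share of their tissue. In skin, Ccr7 stood at 161 CPM at or below the median and 49.5 CPM above it, and S1pr1 at 35.1 and 18.6 CPM. In lung, Ccr7 stood at 605 and 679 CPM, and S1pr1 at 294 and 281 CPM. S1pr4 stood at 112 and 88.2 CPM in skin and 164 and 148 CPM in lung. The part of dissociation in these levels and ratios was not tested.

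Whether the members mark the same cells was read at 1000 UMIs as the number of cells with both genes over the number that their shares would give. In skin, S1pr1 and S1pr4 were found together in 25.5 cells on average over draws where the shares give 14.8, a ratio of 1.72 (1.12 to 2.53). Ccr7 and S1pr1 were together in 18.1 cells against 10.5 given by the shares, 1.72 (1.02 to 2.71), and Ccr7 and S1pr4 in 31.2 against 39.2, 0.795 (0.542 to 1.13). The counts are small and only the first pair keeps an interval above 1 when cells are compared within their own clusters, at 1.57 (1.02 to 2.30). Within clusters Ccr7 with S1pr1 stood at 1.11 (0.661 to 1.76). Over all cells the log2 interval of this pair was 0.028 to 1.44. It reached below 0 without cells with 2 or more UMIs of other cell types, at -0.066 to 1.62. It also did in cells low in early response genes, at -0.12 to 1.39, and in 1 random draw, at -0.13 to 1.37. At 500 UMIs per cell and in cells with a Foxp3 UMI, the log2 intervals of S1pr1 with Ccr7 and with S1pr4 both reached below 0. Put as shares, 16.0% (10.7 to 22.6) of skin cells with S1pr1 had S1pr4, against 9.09% (8.39 to 9.83) of those without.

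In lung the pairs were closer to the number given by the shares. Ccr7 and S1pr1 were together in 815 cells against 721, a ratio of 1.13 (1.06 to 1.21), and 27.0% (25.4 to 28.6) of lung cells with Ccr7 had S1pr1, against 22.1% of those without. Within clusters the ratio was 1.03 (0.962 to 1.10). Ccr7 with S1pr4 stood at 0.958 (0.869 to 1.05) and S1pr1 with S1pr4 at 1.08 (0.961 to 1.21), both with intervals that hold 1. The difference of a ratio between skin and lung was not tested.

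**Figure D3:**
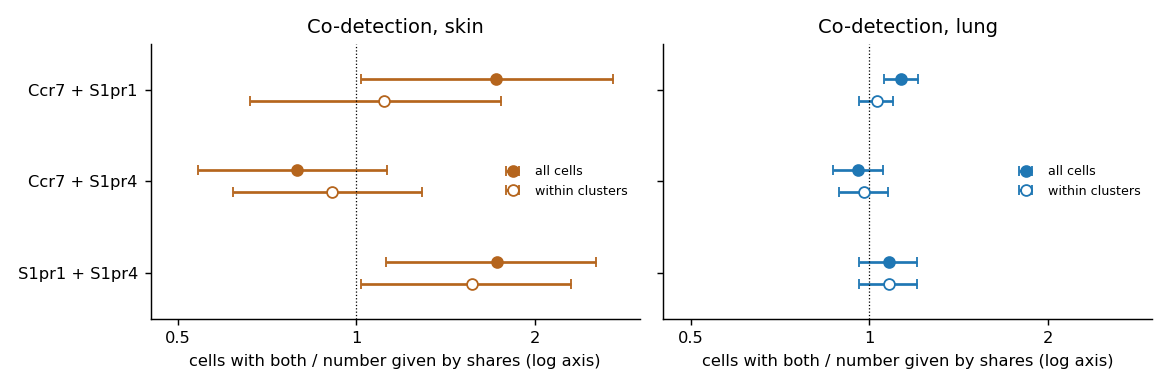
Cells with a UMI of both genes over the number given by the product of their shares (log axis), at 1000 UMIs per cell, in skin (left) and lung (right). Filled points are all cells, open points the same ratio with shares taken within clusters, bars are 95% counting intervals, and the dotted line marks a ratio of 1. In lung all ratios lie between 0.958 and 1.13, and in skin the intervals are wide.

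Cd69, which encodes the protein that removes S1PR1 from the surface, stood at 806 CPM in skin against 162 CPM in lung, and at 1000 UMIs was detected in 52.6% of skin cells and 14.2% of lung cells. In skin, Ccr7 stood at 82.1 CPM in cells with a Cd69 UMI and 131 CPM in cells without, a ratio of 0.625 (0.534 to 0.730). This interval counts UMIs of the same cell as independent, and 1 random draw gave a log2 ratio of -0.45, against -0.68. S1pr1 stood at 24.9 CPM with Cd69 and 29.0 CPM without, 0.859 (0.629 to 1.17), and S1pr4 at 97.2 CPM with and 104 CPM without, 0.937 (0.8005 to 1.10). The background is that 1.15% of 5456 genes were at least 1.5-fold higher without Cd69 and 0.055% with it on log2(CPM + 5). Ccr7, at -0.65 on that scale, was among the genes higher without Cd69, and S1pr1 and S1pr4 were within 1.5-fold.

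The Ccr7 difference in skin went with the cluster. Skin cluster 4, where most Ccr7 lay, had Cd69 in 36.6% of its cells, close to the 36.5% of the dividing cluster 7. The share reached 72.3% in cluster 2, which has Fos, Egr2, Dusp1, Klf2 and Fosb among its leading genes. Compared within clusters, the ratio of Ccr7 with over without Cd69 was 0.952, and inside cluster 4 it was 0.931 (0.764 to 1.13). Markers of other cells moved with Cd69 as well. All 7 fibroblast markers had UMIs, with a summed level of 451 CPM in skin cells with Cd69 against 1544 CPM in cells without. Without the clusters of other cell types the log2 ratio was -0.71, against -0.68 in all cells.

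By the number of Cd69 UMIs, Ccr7 in skin stood at 131 CPM in cells with 0, 93.8 CPM with 1, 75.1 CPM with 2 and 54.4 CPM (37.3 to 76.7) with 3 or more. S1pr1 stood at 29.0, 28.5, 22.3 and 17.2 CPM, the last from 10.3 UMIs (8.36 to 31.5 CPM), so that its first and last intervals overlap. Klf2 ran the other way in skin, at 503, 583, 727 and 957 CPM. Its skin ratio with over without Cd69 was 1.36 (1.28 to 1.46), and 1.18 within clusters. The share of UMIs in early response genes, among which Cd69 is not counted, went up along the same bins, 2.12%, 2.37%, 2.69% and 3.17%. Split at the median of that share, the ratio of Ccr7 with over without Cd69 was 0.850 (0.614 to 1.18) in the skin cells above the median and 0.716 (0.595 to 0.860) in those at or below it, and S1pr1 stood at 0.931 (0.540 to 1.63) and 0.968 (0.652 to 1.43).

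In lung the ratios of S1pr1 and Ccr7 in cells with over without Cd69 lay below 1, by less than 1.5-fold, and the interval of S1pr4 held 1. S1pr1 stood at 258 CPM with Cd69 and 293 CPM without, a ratio of 0.879 (0.777 to 0.993), and within clusters 0.913. Its interval held 1 when the lung cells were split at the median early response share, at 0.877 (0.742 to 1.03) in the cells above the median and 0.890 (0.736 to 1.07) in those at or below it. The interval of its log2 ratio also reached above 0 without cells with UMIs of other types, at -0.23 (-0.47 to 0.0070), at 500 UMIs per cell, at -0.16 (-0.50 to 0.16), and with 2 or more Cd69 UMIs, at -0.15 (-0.60 to 0.28). Ccr7 stood at 559 CPM with and 656 CPM without, 0.853 (0.784 to 0.926), and within clusters 0.977. S1pr4 stood at 147 CPM with and 157 CPM without, 0.936 (0.793 to 1.10). Of the 4648 genes compared 0.731% were at least 1.5-fold higher without Cd69 and 0 with it. In the 302 lung cells with a Foxp3 UMI the log2 ratio of S1pr1 was 0.12 (-0.86 to 0.99), against -0.19 in all cells. Epithelial markers had a summed level of 456 CPM in lung cells with Cd69 and 1800 CPM in cells without, with all 7 detected, and their part in these ratios was not tested. Without the clusters of other cell types the log2 ratio of S1pr1 was -0.19, the same as in all cells at 2 decimals. For 6 comparison genes of the cytoskeleton and the T cell surface (Actb, Tmsb4x, B2m, Ptprc, Cd3e and Cd4), the ratios in skin ran from 0.947 for Actb to 1.08 for Ptprc, and in lung from 1.01 for Cd3e to 1.13 for Ptprc.

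**Figure D4:**
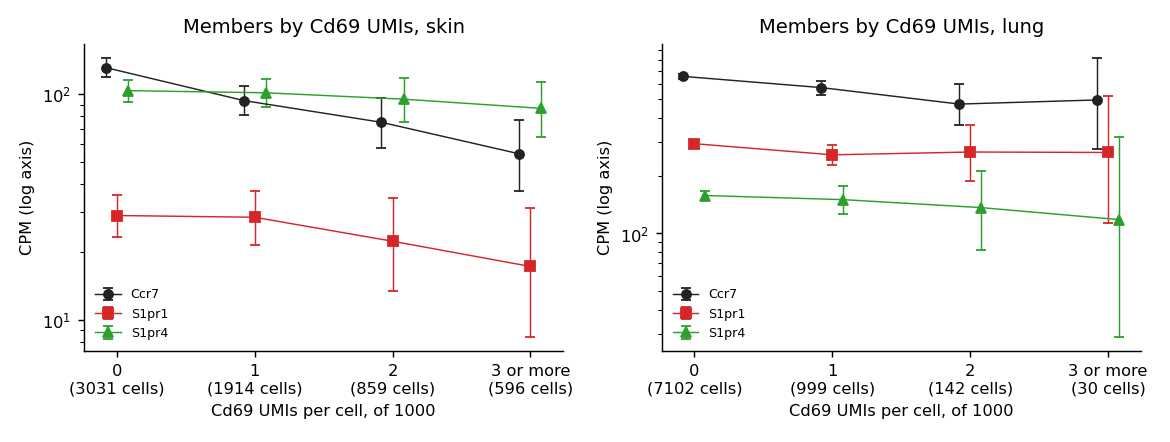
CPM of the 3 members (log axis) by the number of Cd69 UMIs per cell after thinning to 1000 UMIs, in skin (left) and lung (right), with 95% counting intervals and the mean number of cells under each bin. In skin Ccr7 is at 131 CPM in the first bin and 54.4 CPM in the last, while the intervals of S1pr1 and S1pr4 overlap.

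S1pr1 stood higher in cells with Klf2 in both tissues. In skin, S1pr1 stood at 39.0 CPM in cells with a Klf2 UMI and 21.4 CPM in cells without, a ratio of 1.82 (1.33 to 2.49), and within clusters 1.74. In lung it stood at 302 CPM with Klf2 and 213 CPM without, 1.42 (1.25 to 1.62), and within clusters 1.28. By 0, 1, 2 and 3 or more Klf2 UMIs, S1pr1 stood at 21.4, 31.2, 44.3 and 57.4 CPM in skin and at 213, 258, 282 and 332 CPM in lung. S1pr4 had ratios of 1.29 (1.10 to 1.52) in skin and 1.02 (0.878 to 1.19) in lung. Ccr7 had 1.03 (0.873 to 1.21) in skin and 1.20 (1.11 to 1.30) in lung. Klf2 is also known as an early response gene, and the early response share was 2.22% in skin cells with 0 Klf2 UMIs and 3.39% in those with 3 or more. Its part was not tested.

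Among the listed transcription factors in skin, Tcf7 and Lef1 were those whose ratio with Ccr7 had an interval above 1 over all cells, and Klf2, Foxo1, Foxo3 and Satb1 had intervals that hold 1. In skin, Ccr7 stood at 308 CPM in cells with Tcf7 and 99.9 CPM without, a ratio of 3.09 (2.28 to 4.10), which was 1.01 within clusters. With Lef1 the ratio was 2.28 (1.72 to 2.98), and 1.05 within clusters. In lung the highest ratio among the listed transcription factors was with Satb1, with Ccr7 at 840 CPM in cells with it and 542 CPM without, 1.55 (1.47 to 1.64), and 1.17 within clusters. Of the retention genes read in skin other than Cd69, Cxcr6, Itgae, Cd44 and Prdm1 had intervals below 1 with Ccr7, and those of Runx3, Ahr and Rgs1 held 1. In skin cells with Cxcr6, Ccr7 stood at 49.7 CPM, against 142 CPM without, a ratio of 0.350 (0.286 to 0.425), and 0.719 within clusters. With Itgae the ratio was 0.523 in skin and 0.573 in lung, and within clusters 0.843 in skin and 0.808 in lung. With Cd44, a gene of antigen-experienced cells, it was 0.538 in skin and 0.824 in lung, and within clusters 0.898 in skin and 0.945 in lung. S1pr1 had ratios of 0.557 (0.388 to 0.786) with Cxcr6 and 0.648 (0.431 to 0.9498) with Itgae in skin, and within clusters 0.807 with Cxcr6 and 0.788 with Itgae. S1pr4 stood at 0.980 (0.833 to 1.15) with Cxcr6 and 0.918 with Itgae in skin.

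**Figure D5:**
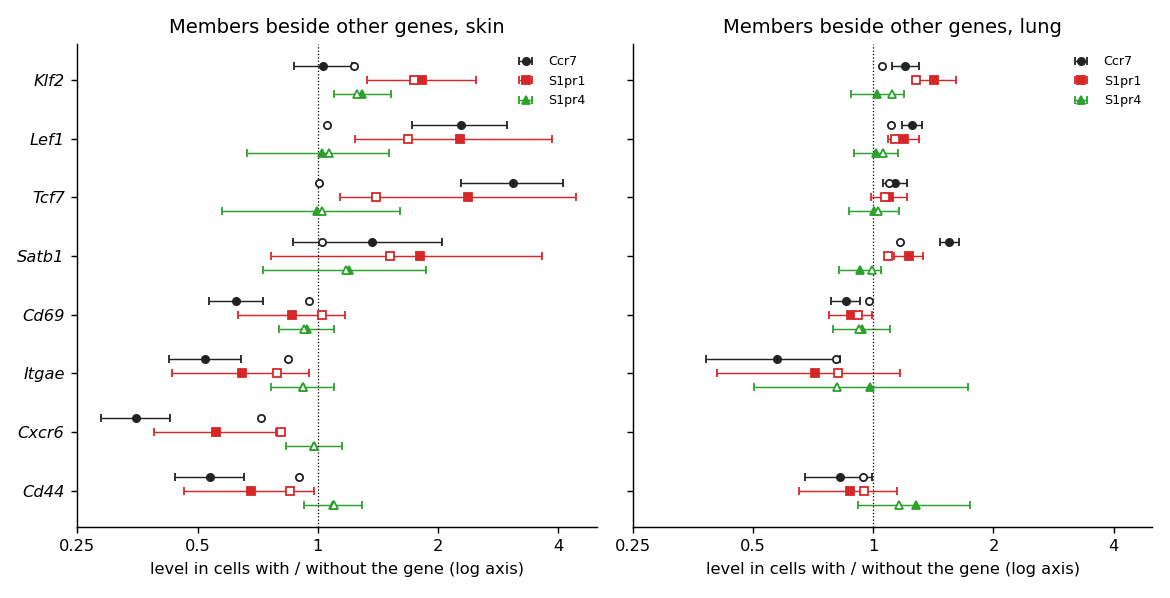
Level of each member in cells with over cells without a UMI of 8 other genes (log axis), at 1000 UMIs per cell, in skin (left) and lung (right). Filled points are all cells with 95% counting intervals, open points the ratio within clusters, and Cxcr6 is not shown in lung, where under 50 cells had it. S1pr1 lies above 1 with Klf2 in both tissues, and Ccr7 lies furthest below 1 with Cxcr6 in skin.

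The genes most like each member were sought by the correlation of detection across cells at 1000 UMIs (phi over 6400 skin and 8273 lung cells), ranked by the lower value of the 2 tissues over 4068 genes. The cells of a tissue share 1 library and its free RNA, and all values are small, so they are a description. For Ccr7 the first 5 were Prkca, Tnfsf8, Rgs10, Lrrc32 and Lef1, with Prkca, a protein kinase C gene, at 0.11 in skin and 0.10 in lung. For S1pr1 they were Vps37b, Klf2, Dusp10, Lef1 and Gimap6, with Klf2 at 0.044 in skin and 0.056 in lung. For S1pr4 they were Itgb7, S100a10, Lgals3, S100a4 and Ezr, with S100a4 at 0.025 in skin and 0.056 in lung. S1pr1 was 14th for Ccr7 and Ccr7 was 7th for S1pr1, while S1pr4 was 3304th for Ccr7. Cd69 stood at 4005th for Ccr7, at -0.049 in skin and -0.030 in lung. It was 3955th for S1pr1, at -0.011 in skin and -0.017 in lung. For S1pr4 it was 3715th, at -0.0095 in skin and -0.0076 in lung.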

How the data were processed

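Per the file headers, the values are whole-number UMI counts, raw and not scaled, for each gene in each barcode that the authors had called a cell. Cell Ranger and mm10 are named in the submitters' processing notes, and version 3.0.2 in the header of the lung matrix. A further table of the lung sample was not used here. A barcode was kept when it had 200 or more genes and no more than 10% mitochondrial UMIs, which 6467 in skin and 8641 in lung did. No doublet caller was run, and leaving out the 6% of cells with most UMIs was tried instead. Counts were summed per library and divided by the total over shared genes. Intervals at 95% are exact Poisson for sums, exact binomial for ratios of sums and Clopper-Pearson for shares. They cover counting error only. Those of sums and ratios of sums count UMIs of the same cell as independent, and leave out uneven spread over cells. Thinning to 1000 UMIs was computed as the mean over all draws without replacement, a choice made after single draws were seen to differ. Clusters were built per library with scanpy 1.11.5 and leidenalg 0.10.2 (2000 variable genes, 30 components, 15 neighbours, resolution 0.8), leaving out the members and Cd69. A cluster was given to another cell type where 3 or more of its markers were 4-fold up. Values within clusters use the Mantel-Haenszel rate ratio, or shares summed over clusters. The steps were tested on simulated data. Python 3.11.15, numpy 2.4.6, scipy 1.17.1 and pandas 2.3.3 were used, and gene positions and the promoter came from GENCODE and RefSeq. The members, lists, markers and settings were chosen with earlier results of these data known. Genes named are the members, Cd69, the sort gate, listed genes 2-fold or more apart or needed for a member, and the 5 most alike per member. Foxo3, Gnai2, Arrb2, Grk2, Sgpl1, Ackr4 and the cluster leaders were named after their values were seen.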

Additional observations from a re-analysis of the deposited data

How the results depend on the processing

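Of 198 alternative values over 18 results, 164 stayed close to the value reported (inside its counting interval, or within 1.5 times for a count of genes), and all 30 alternatives for the levels kept the sign. Results with few counts have wide intervals, so closeness says less for them. Skin Ccr7 with S1pr1 co-detection, 0.78 (0.028 to 1.44) as reported on the log2 scale, was 0.15 within clusters and counts as close. For Ccr7 in skin over lung, -2.42 on the log2 scale, the value was -2.59 without the 6% of cells with most UMIs, -2.60 without cells with 2 or more UMIs of other cell types, -2.94 in cells with a Foxp3 UMI, -1.77 in cells low in early response genes, -2.81 without mitochondrial and ribosomal protein genes, -2.83 with median-of-ratios scaling and -2.60 as a mean over cells. For S1pr1, -3.36 as reported, it was -2.90 in Foxp3 UMI cells, -3.07 in cells low in early response genes, -3.76 without mitochondrial and ribosomal protein genes and -3.77 with median-of-ratios scaling. For S1pr4, -0.73 as reported, it was -0.60 without the cells with most UMIs, -0.57 without cells with UMIs of other types, -0.82 in Foxp3 UMI cells, -1.13 and -1.14 under those same scalings and -0.64 as a mean over cells. The skin library held 365 cells with a Foxp3 UMI, the lung library 302. In these cells the log2 co-detection ratio was 1.51 for skin Ccr7 with S1pr1 and 0.34 for lung S1pr1 with S1pr4. For skin Ccr7 with S1pr4 it was 0.31, against -0.33 in all cells. The log2 ratio with over without Cd69 was -0.31 for skin Ccr7, -0.11 for lung Ccr7 and -0.53 for lung S1pr4. For lung S1pr1 it was 0.12, the 1 change of sign among results whose interval left out 0. Results whose interval holds 0 changed sign in other settings too. By Cd69, skin S1pr1 within clusters was 0.038 against -0.22, and lung S1pr4 in 1 random draw was 0.062 against -0.095. Skin Ccr7 with over without Cd69, -0.68 as reported, was -0.45 at 2000 UMIs per cell, -0.45 in 1 random draw, -0.98 with 2 or more Cd69 UMIs and -0.072 within clusters. Lung Ccr7, -0.23 as reported, was -0.47 with 2 or more Cd69 UMIs and -0.033 within clusters. Lung S1pr1 was -0.43 in 1 random draw and -0.22 in another. Lung Ccr7 with S1pr1 co-detection, 0.18 as reported, was 0.041 within clusters. With a floor of 5 CPM, 177 genes in skin and 121 in lung passed 1.5-fold by Cd69, against 66 and 34, as more genes were compared. The values within clusters, those without clusters of other types and the further draw were chosen after seeing the data. Other causes were not tested. No paired analysis was possible because each tissue has 1 library. Depth limits S1pr1 in skin most, at 414 UMIs.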
